A study of Mus musculus with 6 samples.

Results

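The 10 genes described here code for the machinery of G1, the phase in which a cell commits to copying its DNA. They are the D cyclin genes Ccnd2 and Ccnd3, their kinases Cdk4 and Cdk6, the E cyclin genes Ccne1 and Ccne2, their kinase Cdk2, and the inhibitor genes Cdkn1b (p27), Cdkn2c (p18) and Cdkn2d (p19). They were taken by name and role, with earlier results of these data known, and all 10 were found among the 21139 genes of the deposited table. The table holds 6 libraries of CD4+ T cells from the spleen of C57BL/6J mice, cultured for 2 days with antibodies to CD3 and CD28. Of these, 3 libraries were cultured in medium without compound, and 3 with CpdA, a compound that the series describes as an agonist of the fatty acid receptor Gpr120, at a dose of 20 in a unit read here as µM. The antibody activation was shared by both groups, no unstimulated or vehicle group was used here, and the labels do not give the age or number of mice or whether replicates were separate cultures. P-values therefore measure only the spread between these libraries, which may be technical.

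A resting T cell is held in G1 or outside the cycle by inhibitors of the cyclin-dependent kinases. Receptor and co-stimulatory signals raise D cyclins, which pair with Cdk4 or Cdk6 and begin to phosphorylate the retinoblastoma protein RB, the repressor of E2F transcription factors. E2F then raises the E cyclins, which activate Cdk2, complete the inactivation of RB and start replication. INK4 inhibitors such as p18 and p19 bind Cdk4 and Cdk6 and keep D cyclins off them, whereas p27 binds whole cyclin-kinase complexes and blocks cyclin E with Cdk2 above all. In T cells cyclin D2 and cyclin D3 are the main D cyclins, and loss of p27 is a known step of their entry into S phase.

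With CpdA, transcripts of the E cyclin step were higher and that of its inhibitor p27 lower. Ccne1, Ccne2 and Cdk2 rose, Cdkn1b, Cdkn2d and Ccnd2 fell, and Ccnd3, Cdk4, Cdk6 and Cdkn2c did not pass the test. The largest changes were 1.38-fold for Ccne1 and Ccne2 and a loss of 26.4% for Cdkn1b. Thus 6 of 10 genes passed an adjusted p of 0.05 in edgeR's quasi-likelihood test, where 33.2% of the 13507 genes tested did. The 3 that rose stand beside 16.5% of all genes called higher, and the 3 that fell beside 16.7% called lower. Removing trends with length and GC content moved that split over all genes from 2231 higher and 2252 lower to 2817 and 1802. In 8 of the 10 the medium and CpdA libraries did not overlap, as for 43.9% of all tested genes. The median log2 fold change was 0.002 over the 10 genes and 0.0004 over all genes tested. In RNA from whole cultures, fewer cells in a state and less RNA per cell cannot be told apart.

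**Figure D1:**
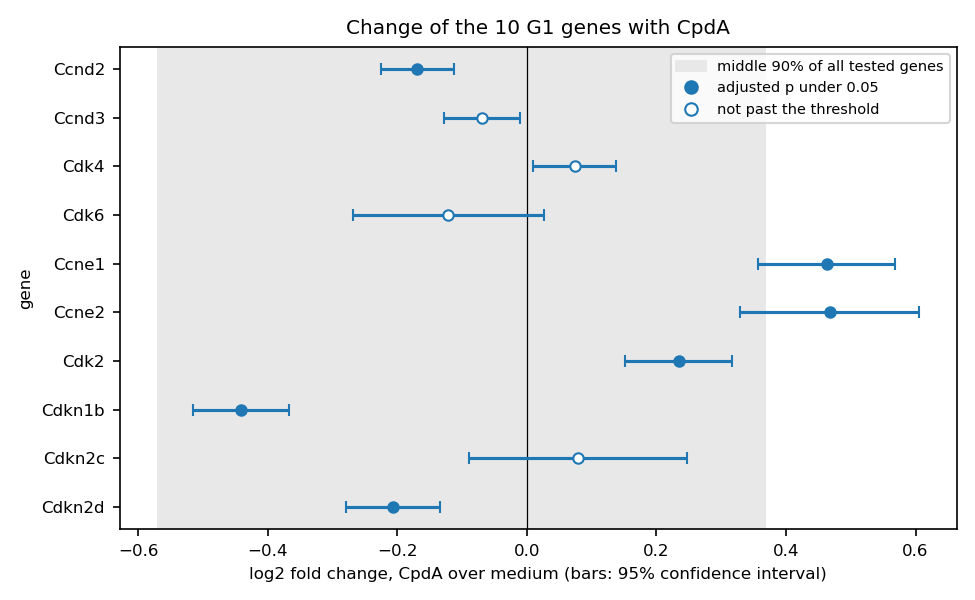
Log2 fold change of each gene (CpdA over medium, horizontal axis) with its 95% confidence interval, filled where the adjusted p is under 0.05; the grey band holds the middle 90% of all tested genes, from -0.57 to 0.37. Ccne1 and Ccne2 lie above that band at 0.46 and 0.47, and Cdkn1b at -0.44 is the lowest of the 10.

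Library totals ran from 20247761 to 25952169 counts, and the 10 genes had between 290 and 20573 counts in a library, so all 10 passed the filter on low counts. The T cell markers Cd3d, Cd3e, Cd3g, Cd247, Cd4, Trac, Lck and Cd28 summed to 2036 to 2064 CPM (counts scaled to library size) in medium and 1848 to 1857 CPM with CpdA, and 7 of the 8 fell. Markers of other cells were far lower. B cell markers summed to 28.3 to 36.0 CPM in medium and 30.2 to 35.9 CPM with CpdA, CD8 markers to 7.99 to 8.84 and 7.33 to 9.40 CPM, and NK cell markers, mostly Gzma, to 51.4 to 56.5 and 49.2 to 52.0 CPM. Macrophage markers (5.29 to 6.17 and 4.35 to 4.62 CPM) and plasma cell markers (24.03 to 25.1 and 20.04 to 22.4 CPM) were lower with CpdA in every library, while dendritic (2.58 to 3.64 and 3.37 to 3.83 CPM), neutrophil (5.42 to 6.57 and 4.55 to 5.63 CPM) and erythroid (0.494 to 1.23 and 0.635 to 0.963 CPM) sums overlapped. The markers Adgre1, Jchain, Tnfrsf17, S100a8, S100a9 and Mpo were not analysed here. The exact two-sided permutation test gave p = 0.1, the smallest it can give for 3 libraries against 3, for T cell, macrophage and plasma cell markers (adjusted p = 0.3 over the 9 lists). The part of these shifts in the results below was not tested.

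Measured per length, in FPKM (reads scaled to deposited gene length and library size), the 10 genes spanned a wide range. In medium the order was Ccnd2 (150.9 FPKM), Cdk4 (118.2), Cdkn2d (109.9), Ccnd3 (76.1), Cdkn1b (37.9), Cdk2 (33.0), Cdk6 (23.9), Ccne1 (20.1), Cdkn2c (6.42) and Ccne2 (6.10). Neighbours in this order did not overlap in any library, except Cdkn2c and Ccne2. With CpdA the order was Ccnd2 (135.1 FPKM), Cdk4 (125.3), Cdkn2d (95.9), Ccnd3 (73.01), Cdk2 (39.1), Cdkn1b (28.04), Ccne1 (27.97), Cdk6 (22.1), Ccne2 (8.48) and Cdkn2c (6.82). There Ccnd2 overlapped with Cdk4 and Cdkn1b with Ccne1, and no other neighbours did. On this scale Cdk2 thus stood below Cdkn1b in medium and above it with CpdA. In CPM, without length scaling, Cdkn1b stood above Cdk2 in both groups. The means were 172.5 against 80.3 CPM in medium and 127.6 against 95.1 CPM with CpdA.

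**Figure D2:**
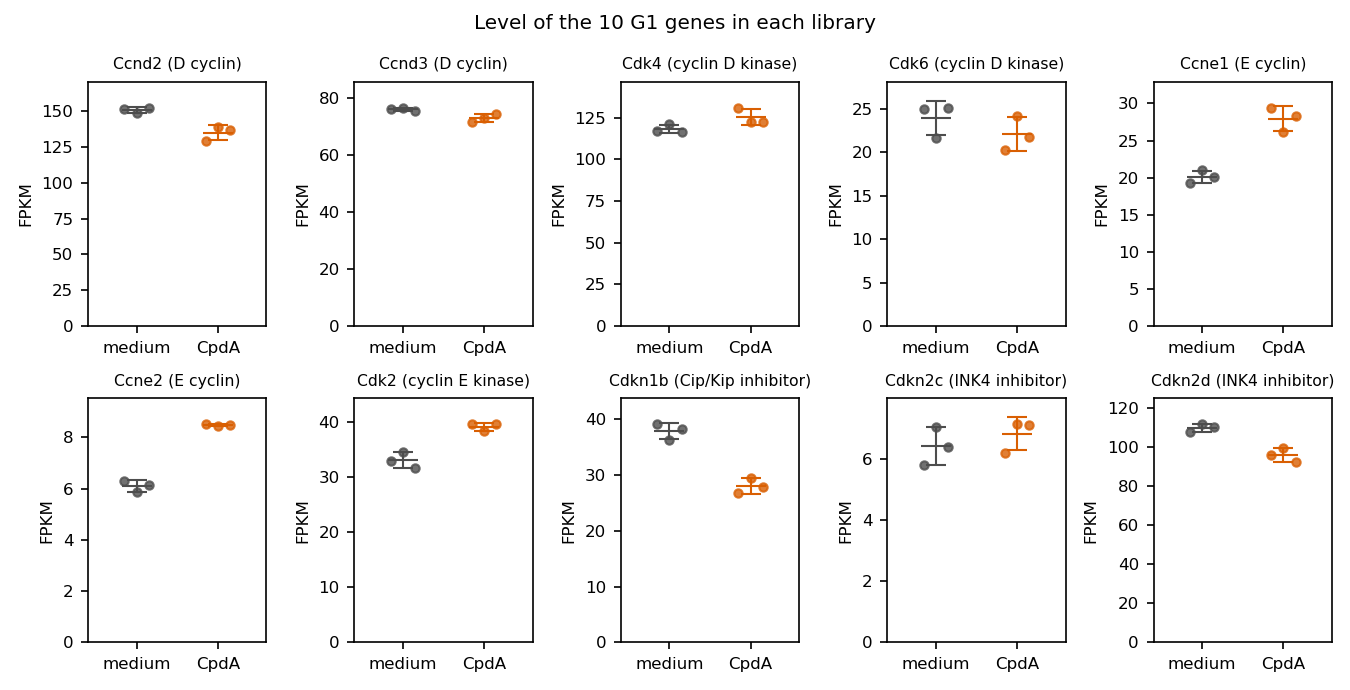
FPKM (vertical axes, each from 0) of the 10 genes in the 3 medium libraries (grey) and the 3 CpdA libraries (orange); points are libraries, bars the mean and SD. The groups are apart for every gene except Cdk6 and Cdkn2c; the E cyclin and Cdk2 panels are higher with CpdA and the Cdkn1b panel is lower.

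The E cyclins mark the passage from G1 to S phase. Ccne1 (chromosome 7, 38097984 to 38107534, GRCm38) codes for cyclin E1, the more abundant of the pair here. It measured 19.3, 21.0 and 20.1 FPKM in the medium libraries and 29.4, 26.1 and 28.4 FPKM with CpdA. Every CpdA library lay above every medium library, and the lowest of them, CpdA replicate 2, still stood well clear of the highest medium value. The log2 fold change was 0.46 ± 0.05 (SE, adjusted p = 2.9e-09), higher than that of 97.0% of genes tested. Ccne2 (chromosome 4, 11191351 to 11204779), coding for cyclin E2, rose by nearly the same factor from a lower level. Its values were 6.29, 5.85 and 6.16 FPKM in medium and 8.52, 8.43 and 8.50 FPKM with CpdA, and the difference was 0.47 ± 0.07 on the log2 scale (SE, adjusted p = 6.4e-07). The CpdA libraries were almost equal, with a coefficient of variation of 0.509%, less than the 4.04% that counting error alone gives at this depth. Because both genes moved alike, Ccne1 made up 76.7% ± 1.4 of their summed FPKM in medium and 76.7% ± 1.01 with CpdA (SD, n = 3). That sum went from 26.2 ± 0.6 to 36.5 ± 1.7 FPKM (SD, n = 3).

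Ccne2 shares sequence with a neighbour on the other strand. In the GENCODE M21 annotation 17.4% of its exon bases (609) also lie in exons of Ints8, a subunit of the Integrator complex, and no source used here gives the strand setting of the counting. Ints8 had 2981 counts in medium and 3654 with CpdA against 1222 and 1850 for Ccne2, and it rose as well, by 0.16 in log2 terms (adjusted p = 0.0116). The share of Ccne2 counts that could be Ints8 reads was not tested. Ccnd2 shares 3.91% of its exon bases with 9330179D12Rik, which had only 217 counts in medium and 196 with CpdA against 57405 and 56025. Exon overlap of Ccne1, Cdk2, Cdkn1b, Cdkn2c and Cdkn2d with other genes was not measured here.

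Cdk2 (chromosome 10, 128697939 to 128705051) codes for the kinase that the E cyclins activate. It measured 32.9, 34.5 and 31.7 FPKM in medium and 39.5, 38.2 and 39.5 FPKM with CpdA. The groups did not overlap, and the rise of 17.6% was smaller than that of either E cyclin. The log2 fold change was 0.23 ± 0.04 (SE, adjusted p = 1.4e-05).

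Cdkn1b (chromosome 6, 134920401 to 134925513), coding for p27, had the strongest evidence of change among the 10 genes. Its level was 39.1, 36.2 and 38.3 FPKM in medium and 26.8, 29.5 and 27.8 FPKM with CpdA. All 3 CpdA libraries lay below all 3 medium libraries. The log2 fold change was -0.44 ± 0.04 (SE, adjusted p = 2.0e-12), lower than that of all but 7.9% of genes tested, and 81.9% of the called genes changed by less. The spread between libraries, 3.91% in medium and 4.90% with CpdA, was small beside this difference. p27 is also controlled by destruction of the protein, on which RNA counts say nothing.

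Set against its targets in the same library, Cdkn1b differed more between groups. The ratio of Cdkn1b to Cdk2 FPKM was 1.19, 1.05 and 1.21 in medium and 0.677, 0.772 and 0.704 with CpdA. Relative to the summed E cyclins, Cdkn1b stood at 1.53, 1.35 and 1.46 in medium and 0.706, 0.854 and 0.755 with CpdA. In both ratios every CpdA library lay below every medium library. Their position relative to 1 depends on the scaling to deposited gene length. Relative to Cdk4, Cdk6 and Cdk2 together, the ratio went from 0.216 ± 0.010 to 0.150 ± 0.0096 (SD, n = 3). These ratios combine the changes already given and were not tested separately.

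**Figure D3:**
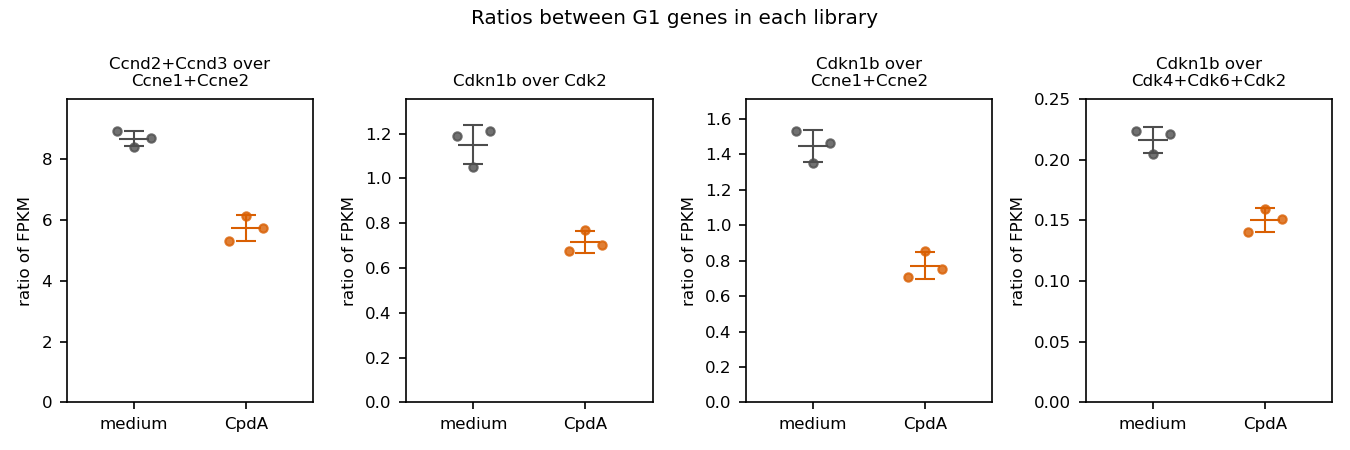
Ratios of FPKM between G1 genes (vertical axes, each from 0) in each library, with mean and SD; medium is grey and CpdA orange. The summed D cyclins over the summed E cyclins lie between 8.40 and 8.90 in medium and 5.29 and 6.14 with CpdA, and the 3 ratios with Cdkn1b on top are also lower in every CpdA library.

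The promoters of 4 of these genes are printed to set those that rose, fell or did not pass side by side. Each run is the 250 bases before a RefSeq start of the gene on GRCm38.p6, written 5′ to 3′ on the gene's strand. They lie at chr7:38107491-38107740 (minus strand, Ccne1), chr10:128705052-128705301 (minus, Cdk2), chr6:134920151-134920400 (plus, Cdkn1b) and chr10:127063285-127063534 (plus, Cdk4). Capitals mark the GC box GGGCGG in Ccne1, an E2F motif in Cdk2, the CCAAT box in Cdkn1b and the E-box CACGTG in Cdk4, on either strand. A different motif is marked in each window, so other matches are left in lower case. The 3′ end of the Ccne1 window lies inside the span given above for the gene, whose deposited start is upstream of the RefSeq one.
Ccne1: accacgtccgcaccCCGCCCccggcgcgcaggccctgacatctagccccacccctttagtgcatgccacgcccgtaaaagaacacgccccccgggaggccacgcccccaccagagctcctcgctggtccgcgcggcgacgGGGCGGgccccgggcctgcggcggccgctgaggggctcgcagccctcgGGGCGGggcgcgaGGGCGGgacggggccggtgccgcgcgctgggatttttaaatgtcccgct
Cdk2: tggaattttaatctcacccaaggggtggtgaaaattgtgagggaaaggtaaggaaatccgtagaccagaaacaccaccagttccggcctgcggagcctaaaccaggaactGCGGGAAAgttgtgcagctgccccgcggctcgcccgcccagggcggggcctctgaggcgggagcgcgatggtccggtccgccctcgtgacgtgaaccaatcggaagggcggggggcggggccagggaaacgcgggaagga
Cdkn1b: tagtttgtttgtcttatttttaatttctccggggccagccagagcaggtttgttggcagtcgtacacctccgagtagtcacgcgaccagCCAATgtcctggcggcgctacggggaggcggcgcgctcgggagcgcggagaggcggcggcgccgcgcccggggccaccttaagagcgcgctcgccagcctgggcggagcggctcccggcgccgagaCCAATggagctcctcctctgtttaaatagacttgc
Cdk4: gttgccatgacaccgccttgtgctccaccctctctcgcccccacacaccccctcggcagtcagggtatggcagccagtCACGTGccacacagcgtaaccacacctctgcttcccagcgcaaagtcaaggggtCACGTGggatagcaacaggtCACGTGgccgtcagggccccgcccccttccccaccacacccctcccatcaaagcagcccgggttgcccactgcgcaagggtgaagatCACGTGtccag
RefSeq windows were found for 8 of the 10 genes, in 10 entries; Ccnd2 and Ccne2 have none in the table used. The 4 E2F motifs searched were TTTCCCGC, TTTCGCGC, TTTGCCGC and TTTGGCGC, which 1.86% of all 32851 windows of this length hold. Of the 10 entries 1 held such a motif, that of Cdk2. The Ccne1 window held 4 GC boxes, where 4.09% of all windows hold at least 4, and had 76.0% G and C, against a median of 52.4% over all windows. The Cdk2 window held 5 GC boxes, and 1 Cdkn2c window had more G and C than Ccne1, 77.2%. The Cdkn1b window held 2 CCAAT boxes, and 10.1% of all windows held at least 2. Cdk4, whose promoter is a known target of MYC, held 4 E-boxes, where 0.0213% of all windows hold at least 4, and Cdk6 was the only other of the 8 genes with 1. The forkhead motif GTAAACA, bound by FOXO factors, was found in 1 Ccnd3 window and in 3.17% of all windows. These matches describe the letters of the windows and are not binding sites.

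The D cyclins were by far the more abundant cyclins, and Ccnd2 fell. Ccnd2 (chromosome 6, 127125779 to 127151048), coding for cyclin D2, measured 151.5, 148.7 and 152.5 FPKM in medium and 129.1, 139.1 and 137.1 FPKM with CpdA. The groups did not overlap, and CpdA replicate 1 was the lowest. The change was a loss of 11.1%, or -0.17 ± 0.03 on the log2 scale (SE, adjusted p = 6.4e-06). Ccnd3 (chromosome 17, 47505051 to 47599691), coding for cyclin D3, measured 76.2, 76.7 and 75.5 FPKM in medium and 71.7, 73.0 and 74.4 FPKM with CpdA. Its groups did not overlap either, but the log2 fold change of -0.07 did not pass (adjusted p = 0.0616; 95% interval -0.13 to -0.01). It passed with the filter of at least 5 CPM in 3 libraries (adjusted p = 0.0233) and was 0.02 once trends with length and GC content were removed (adjusted p = 0.662), so its direction is not fixed. The last 361 bases of Ccnd3 overlap an exon of Bysl on the other strand, a ribosome biogenesis gene that rose by 0.30 (adjusted p = 3.0e-05) and had 2538 and 3417 counts against 19607 and 20459 for Ccnd3. Of the summed D cyclin FPKM, Ccnd2 made up 66.5%, 66.0% and 66.9% in medium and 64.3%, 65.6% and 64.8% with CpdA. The D cyclins together went from 227.04 ± 1.4 to 208.1 ± 6.4 FPKM (SD, n = 3), and their ratio to the E cyclins from 8.67 ± 0.25 to 5.72 ± 0.42.

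The kinases that D cyclins activate did not pass the test. Cdk4 (chromosome 10, 127063534 to 127067920) measured 117.2, 121.1 and 116.3 FPKM in medium and 130.9, 122.5 and 122.5 FPKM with CpdA. The CpdA libraries were all higher, by a narrow margin over medium replicate 2, and the log2 fold change was 0.07 (adjusted p = 0.0691; 95% interval 0.01 to 0.14). It passed without medium replicate 2 (0.09, adjusted p = 0.0333), without CpdA replicate 2 (0.09, 0.0447), with library size alone as scaling (0.08, 0.0387) and with length and GC trends removed (0.11, 0.00393). It was 0.04 without CpdA replicate 1 (adjusted p = 0.357) and 0.07 with the replicate block (adjusted p = 0.150). Its 3′ end overlaps that of Tspan31 on the other strand (19.7% of Cdk4 exon bases), a tetraspanin gene with 2445 and 2681 counts against 16210 and 18620, whose log2 difference was 0.004 (adjusted p = 0.963). Cdk6 (chromosome 5, 3343893 to 3523218) measured 24.99, 21.7 and 25.1 FPKM in medium and 20.3, 24.2 and 21.8 FPKM with CpdA. Here the groups overlapped, since medium replicate 2 was low and CpdA replicate 2 high for their groups. Its log2 fold change was -0.12 (adjusted p = 0.205; 95% interval -0.27 to 0.03), and it passed without medium replicate 2 (-0.19, adjusted p = 0.00677), without CpdA replicate 2 (-0.19, adjusted p = 0.00375) and with no count filter (-0.12, adjusted p = 0.0281). It was nearer to 0 without CpdA replicate 1 (-0.06, adjusted p = 0.439) and without medium replicate 3 (-0.08, adjusted p = 0.434). The spread of Cdk6 between libraries, 8.12% and 9.03%, was larger than the 2.25% of counting error in each group. Cdk6 made up 16.8% ± 1.4 of the summed Cdk4 and Cdk6 FPKM in medium and 15.004% ± 1.6 with CpdA (SD, n = 3), with overlapping libraries.

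Among the INK4 inhibitors, Cdkn2d fell and Cdkn2c did not pass. Cdkn2d (chromosome 9, 21288463 to 21291209), coding for p19, measured 107.7, 111.8 and 110.2 FPKM in medium and 95.96, 99.3 and 92.2 FPKM with CpdA. Every CpdA library was below every medium library, by -0.21 ± 0.04 on the log2 scale (SE, adjusted p = 1.3e-05). Cdkn2c (chromosome 4, 109660876 to 109667189), coding for p18, measured 5.80, 7.05 and 6.41 FPKM in medium and 6.20, 7.14 and 7.13 FPKM with CpdA. These groups overlapped, and the log2 fold change was 0.08 (adjusted p = 0.515; 95% interval -0.09 to 0.25). Because Cdkn2d is so much more abundant, Cdkn2c made up 5.51% ± 0.41 of the summed INK4 pair in medium and 6.65% ± 0.55 with CpdA (SD, n = 3), on the FPKM scale.

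Other genes of the G1 step were read from 7 lists. Of all tested genes 33.2% were called, 16.5% higher and 16.7% lower, and the counts of each list stand beside these shares. In the list of remaining G1 cyclins and inhibitors, 1 of 4 tested genes fell and 0 rose. That gene was Cdkn1a, coding for p21, a relative of p27 and the most abundant inhibitor transcript here, at 305.04 ± 4.3 FPKM in medium and 251.1 ± 6.02 FPKM with CpdA (SD, n = 3). Its log2 fold change was -0.29, at an adjusted p of 6.2e-11. Ccnd1, Cdkn1c and Cdkn2a were near the limit of detection, with 36, 70 and 34 counts over the medium libraries and 47, 95 and 52 over the CpdA libraries, and Cdkn2b, with 8 and 21 counts, was not tested. The list's median log2 fold change, 0.28, rests on those 3 low genes.

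Of the 13 RB and E2F family genes 5 rose and 3 fell, with a median log2 fold change of 0.03. Beside this list and the next stand 33.2% of all tested genes called, 16.5% higher and 16.7% lower. Tfdp1, a partner with which E2F proteins can bind DNA, rose from 104.3 to 125.8 FPKM (log2 fold change 0.26, adjusted p = 1.6e-08). In the same list Tfdp2 fell by 0.16 on the log2 scale (adjusted p = 0.0228). E2f8, a repressor made in S phase, rose by 0.36 (adjusted p = 6.6e-06). E2f6, another repressor, rose by 0.25, while Rb1, the gene of RB itself, fell from 15.2 to 13.7 FPKM (log2 fold change -0.16, adjusted p = 0.0038). The genes called higher numbered 3 under DESeq2 and when medium replicate 1 or 2 or CpdA replicate 3 was left out, and those called lower numbered 1 without medium replicate 1. Among 12 genes for the turnover of p27 and cyclins 5 rose and 0 fell, with a median of 0.04. They include Skp2, the ubiquitin ligase subunit that marks p27 for destruction, its cofactor Cks1b and its scaffold Cul1, with log2 fold changes of 0.29 (adjusted p = 0.00549), 0.22 (adjusted p = 9.2e-05) and 0.23 (adjusted p = 1.3e-05). Skp1a and Rbx1, which code for other parts of that ligase, were not called, at 0.02 (adjusted p = 0.691) and 0.06 (adjusted p = 0.271). Nor was Rnf123 of the same list, at -0.08 (adjusted p = 0.198). Cks2, a relative of Cks1b, and Cul3, a scaffold in ligases for cyclin E, rose by 0.18 and 0.16. The count of 5 and 0 was the same under all 14 alternatives run. Fbxw7, whose protein marks cyclin E for destruction, stood at 0.01 (adjusted p = 0.906).

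In the list for activation of the kinases 4 of 8 genes rose and 1 fell, with a median of 0.10. Over all tested genes 16.5% were called higher and 16.7% lower. Cdc25a, the phosphatase that removes the inhibiting phosphates of Cdk2, rose by 0.26 (adjusted p = 9.8e-06), and Ccnh, the cyclin of the kinase that activates other CDKs, by 0.20 (adjusted p = 0.00117). Cdc37, a chaperone for kinases including Cdk4, lay at 0.08, close to the threshold (adjusted p = 0.0468), and Cdc25b fell by 0.19. The genes called higher numbered 2 under DESeq2, under both other count filters, with the replicate block, and when replicate 1 or 3 of either group was left out. Of 5 later cyclin and kinase genes 3 rose and 0 fell, with a median of 0.20: Ccna2, the cyclin that follows the E cyclins on Cdk2, by 0.20, and the mitotic pair Ccnb1 and Cdk1 by 0.31 and 0.26. All 16 genes of replication licensing and nucleotide supply rose, with a median of 0.22. Cdc6, which loads the replicative helicase, measured 10.8 ± 0.6 FPKM in medium and 15.1 ± 0.7 with CpdA (SD, n = 3), higher by 0.47 on the log2 scale (adjusted p = 1.9e-10). Tyms, Rrm2 and Mcm2 rose by 0.50, 0.44 and 0.31. Under the alternatives 15 or 16 of them were called, and 0 were lower.

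Of 18 regulators known to act on G1 genes 4 rose and 8 fell, with a median of -0.12. Over all tested genes 16.5% were called higher and 16.7% lower. Stat5b, a transducer of IL-2 signals that can raise D cyclins, fell from 93.4 to 72.8 FPKM (log2 fold change -0.37, adjusted p = 4.0e-13). Mxd4, which codes for an antagonist of MYC, fell by 0.69 on the log2 scale (adjusted p = 2.8e-11), Btg2, an antiproliferative gene, by 0.34 (adjusted p = 3.3e-09), and Pim2, a survival kinase, by 0.33 (adjusted p = 7.9e-12). Foxo3, whose protein can raise Cdkn1b transcription, fell by 0.27 (adjusted p = 1.4e-06), whereas its relative Foxo1 stood at -0.002 (adjusted p = 0.974). Myc rose by 0.11 (adjusted p = 0.0136). Genes called higher numbered 1 without CpdA replicate 1 and 2 with the stricter filter, without medium replicate 3 or without CpdA replicate 3; the 8 called lower became 9 with the stricter filter. Tfdp2, Skp2, Skp1a, Rbx1, Rnf123, Foxo3, Foxo1, Myc, Mycn and Fbxw7 lie outside the rule for named genes and were picked with their values in view.

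**Figure D4:**
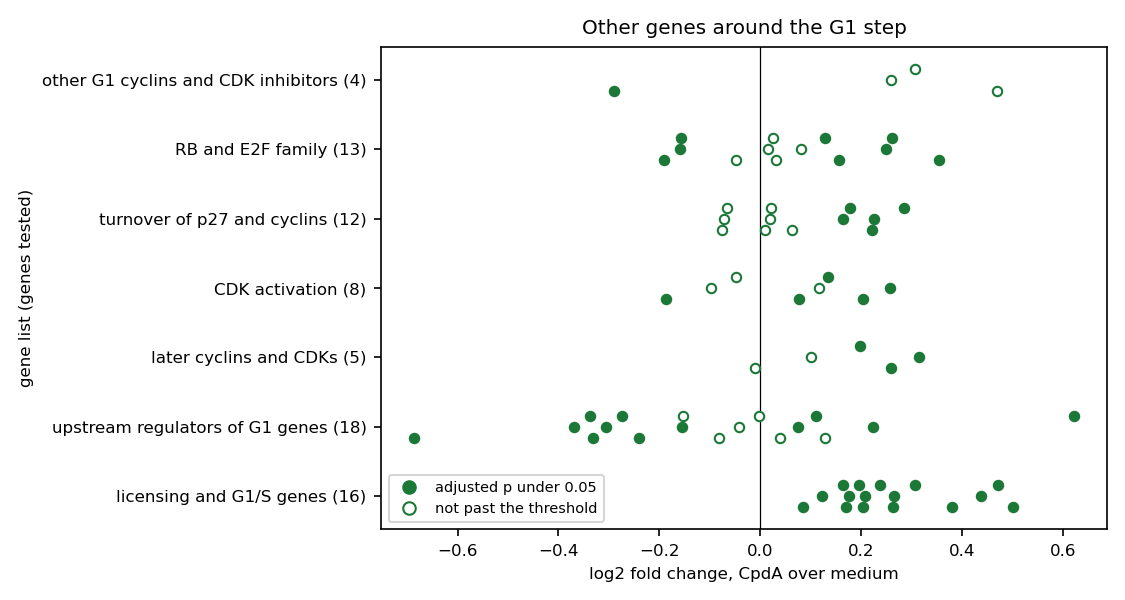
Log2 fold change (CpdA over medium, horizontal axis) of the tested genes of the 7 lists around the G1 step; filled points have an adjusted p under 0.05. All 16 points of the licensing list are filled and to the right of 0, while the regulators spread from -0.69 (Mxd4) to 0.62 (Mycn).

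The genes with the profiles nearest to those of Ccne2 and Cdkn1b, the called members with the highest and the lowest fold change, were found by the root mean square distance of centred log2 CPM over the 6 libraries. For Ccne2 they were Aunip, Gen1 and Gp49a, at distances of 0.040, 0.044 and 0.045. For Cdkn1b they were Ugdh, Ier3 and Khnyn, at 0.016, 0.019 and 0.022. The log2 fold changes of these genes were 0.50, 0.44 and 0.40 for the first 3 and -0.46, -0.45 and -0.46 for the others.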

How the data were processed

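The deposited table gives raw read counts per gene for 6 libraries, per the file headers, and FPKM values that the authors computed: count over deposited gene length and library total returns them to within 1.86e-07 of their size. CASAVA 1.8, GRCm38 and mm10 are named per the submitters' processing notes; the sources used here do not give aligner, counter, annotation or strand setting. The labels' protocols name Trizol RNA and an NEBNext Ultra kit. Groups came from the labels.

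Counts were tested across all genes in R 4.3.3 with the quasi-likelihood test of edgeR 4.0.16 (TMM scaling, robust dispersions, no covariates), after filterByExpr with a minimum count of 10 and total of 15 (13507 genes), with Benjamini-Hochberg adjustment. SE is the absolute log2 fold change over the root of the test's F. Steps were tested on simulated counts. Alternatives were DESeq2 1.42.0, limma-voom (limma 3.58.1), other scalings and filters, length and GC trends removed (GENCODE M21 transcripts, found for 98.9% of genes), a replicate block and each library left out.

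Members and lists were chosen with earlier results of these data known. Named are all 10 members and up to 4 called genes per list with the smallest p, beside exceptions stated. The ratios of Cdkn1b to Cdk2 and to the E cyclins, and of D to E cyclins, were added after values were seen. Libraries of a group differed by more than sampling noise (chi-square per degree of freedom 2.18 to 4.20, against 10.9 to 18.8 between groups). Protein sequences were not used here.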

Additional observations from a re-analysis of the deposited data

How the results depend on the processing

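Ccne1, Ccne2, Cdk2, Cdkn1b, Cdkn2d and Ccnd2 kept their direction and their call under all 14 alternatives, which were other scalings, DESeq2, limma-voom, other filters, length and GC trends removed, the replicate block and each library left out. Their log2 fold changes ranged from 0.43 to 0.51, 0.39 to 0.49, 0.21 to 0.27, -0.48 to -0.41, -0.23 to -0.15 and -0.19 to -0.12. Cdk4, Cdk6 and Ccnd3 were called under 4, 3 and 1 of the alternatives and Cdkn2c under 0 (lowest adjusted p = 0.176; in the edgeR test its adjusted p = 0.515). Over all genes 4483 were called, between 3648 (DESeq2) and 4619 under the alternatives. Removing length and GC trends moved the share of higher among called genes from 49.8% to 61.0% and the median log2 fold change from 0.0004 to 0.03. With the replicate block 3936 genes and the same numbers of members, 3 higher and 3 lower, were called. The labels do not say what replicate numbers share, so they were not taken as pairs. Deviations of same-numbered libraries correlated at -0.02, -0.01 and -0.0006. Counting noise pulls such values toward 0, so they cannot show a lack of pairing. The replicates 2 were the closest pair between groups (chi-square per degree of freedom 10.9, against 18.8 for replicates 1 and 14.6 for replicates 3). Both lay toward the other group for Ccne1, Cdk2, Cdkn1b, Ccnd2, Cdk4 and Cdk6, but not for the other members. The cause was not tested. With CPM in place of FPKM, the difference in the Cdkn2c share read 1.98 in place of 1.14 percentage points. That in the ratio of Cdkn1b to the kinases read -0.125 in place of -0.066. Dropping the length scaling also changes the level of each balance, so these sizes cannot be compared between the scales. Among 5 balances 0 changed sign. With single libraries left out, a step added after seeing the data, 0 of 30 such differences moved by more than the spread between libraries, and 2, both of the Ccne1 share, changed sign (to 0.737 without medium replicate 2 and 0.551 without CpdA replicate 2, from -0.006 percentage points). At 290 to 458 counts in a library, Cdkn2c had a counting error of about 5.35% in medium and 4.98% with CpdA. Its spread between libraries was larger, 9.79% and 7.91%, which limits what can be seen there. Single libraries were not screened for outliers in these groups of 3.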
